A study of Mus musculus with 4 samples.

Results

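The collagen genes were taken as every gene column whose symbol is Col, digits, a and digits. This gave 44 genes of 25031 in the deposited tables of both captures, with 44 in the table of replicate 1 and 42 in that of replicate 2, where Col10a1 and Col9a2 have no column. Col4a3bp, whose symbol continues past the pattern and which encodes a ceramide transfer protein, was left out. No measured value entered this choice.

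The cells came from an ILC3 sort (group 3 innate lymphoid cells) of the small intestinal lamina propria, profiled with the BD Rhapsody system, which counts unique molecular identifiers (UMIs) from the 3′ ends of transcripts. All samples are mice aged 6 to 8 weeks with floxed Cxxc1 alleles and a Cre. Every group of cells below comes from mice of this genotype, and no Cxxc1-sufficient control was used here. Whether Cxxc1 is deleted in each class of cells was not tested, so a difference in deletion cannot be told apart from cell class. There were 2 replicates, each with 2 sequencing libraries that share 1 table and 1 sample tag (tag 4 of a capture of 8064 cells, tag 2 of a capture of 15793 cells). Nothing in the labels ties the replicates to separate animals, so the spread that p-values measure may be technical. With replicate as a block in the fits, that spread is how far class differences vary between the 2 replicates, pooled in part over genes. Paired values below are replicate 1 and then replicate 2.

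Stromal cells are not the sorted cell type. Of 1906 and 4179 cells kept, 442 (23.2%) and 270 (6.46%) passed a stromal gate, which asked for UMIs of at least 4 of 16 stromal markers such as Dcn, Lum and Pdgfra and for more stromal than immune marker UMIs. No collagen gene was used in any gate. The T or ILC gate held 759 and 3245 cells, the plasma or B gate 395 and 23, and the myeloid gate 110 and 60, with 200 and 581 cells unassigned. Ptprc, the leukocyte marker CD45, had a UMI in 11.8% and 41.9% of stromal-gated cells, so immune RNA was present in them. The tagged cells of both captures shared 7 cell indices.

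Collagens are secreted or membrane-bound proteins in which chains wind into a triple helix. Fibrillar collagens (types I, II, III, V, XI, XXIV and XXVII) form the cross-linked fibres that carry tension in connective tissue; basement membrane collagens (type IV, with types XV and XVIII at its border) form the sheet under epithelium, vessels and muscle; the remaining types decorate fibrils, form microfilaments or span the cell membrane. In the gut wall, fibroblasts of the lamina propria and submucosa are the main source of interstitial collagen, and fibroblasts close to the epithelium, smooth muscle, endothelium and the epithelium itself share the making of basement membranes.

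Collagens took 5.91% and 5.87% of all UMIs of stromal-gated cells (mean 5.89%, SD 0.0214, n = 2). The share was 0.0527% and 0.0304% in T or ILC-gated cells, 0.0575% and 0.0254% in plasma or B-gated cells, and 0.0422% and 0.0311% in myeloid-gated cells. Of the 309230 collagen UMIs of stromal-gated cells, 84.2% came from fibrillar genes, 4.94% from basement membrane genes and 10.9% from the other genes. The collagen pool was narrow: 10 of 44 members reached 1% of it in both replicates. Levels are given as CPM, the UMIs of a gene scaled to 1000000 UMIs of the class. Since each molecule is counted once at its 3′ end, they are not scaled by gene length. Intervals in parentheses are 95% counting intervals and cover counting error only.

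Type I and type III collagen led in both replicates, with their order exchanged between them. Col3a1, the sole chain of type III collagen of fine reticular fibrils, stood at 19123 and 15978 CPM. Col1a1, the first chain of type I collagen, stood at 15261 and 18378 CPM, and its partner chain Col1a2 at 12483 and 13329 CPM. Col3a1 averaged 17550 ± 2224 CPM and Col1a1 16820 ± 2204 CPM (SD, n = 2 each), so these neighbours did not differ beyond their spread. Type V chains, which start fibril assembly and limit fibril width, came far below: Col5a2 at 1300 and 999 CPM, Col5a1 at 1211 and 825 CPM, and the minor chain Col5a3 at 162 and 153 CPM. Col27a1, a fibrillar collagen best known from cartilage, had 18.7 and 23.6 CPM. The remaining 4 fibrillar genes (Col2a1, Col11a1, Col11a2, Col24a1) stayed under 20 UMIs over both replicates.

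Among basement membrane genes, the chains of the common type IV network were highest. Col4a1 had 1541 and 1130 CPM and Col4a2 872 and 489 CPM; both were higher in replicate 1. Col15a1, which encodes a proteoglycan-type collagen bridging basement membrane and fibrils, had 560 and 400 CPM, and its relative Col18a1, the precursor of endostatin, 263 and 337 CPM. Col4a5, a chain of the more specialised type IV networks, reached 7.07 and 2.51 CPM, from 23 and 5 UMIs.

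Type VI collagen, which forms beaded microfilaments around cells, led the other genes. Its core chains were Col6a1 at 1930 and 1892 CPM, Col6a2 at 1755 and 1800 CPM and Col6a3 at 972 and 787 CPM. The alternative chains, which can stand in for the product of Col6a3, were low, with Col6a5 at 74.4 and 55.7 CPM and Col6a4 at 16.9 and 11.04 CPM. Among the collagens that sit on the surface of fibrils, Col14a1 had 1039 and 1721 CPM, Col16a1 135 and 109 CPM and Col12a1 42.1 and 25.6 CPM. Col8a1, a short-chain collagen that forms networks in vessel walls and in Descemet's membrane of the eye, had 238 and 269 CPM. The transmembrane collagens were low, with Col23a1 at 18.7 and 10.03 CPM and Col13a1 at 7.38 and 7.02 CPM.

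**Figure D1:**
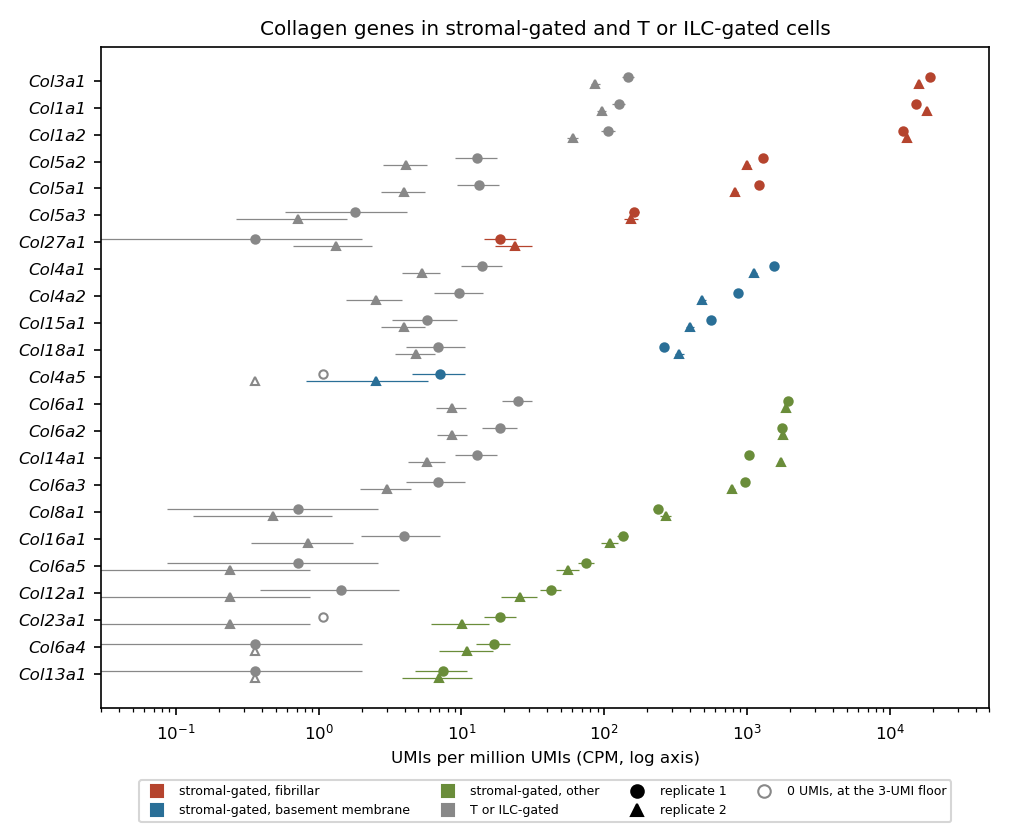
Level of each collagen gene with at least 20 UMIs in stromal-gated cells (colours) and in T or ILC-gated cells (grey), as CPM on a log axis, with 1 point per replicate, bars of 95% counting intervals and open points at the floor of 3 UMIs where no UMI was counted. Stromal points run from 2.51 CPM (Col4a5) to 19123 CPM (Col3a1), and each lies right of the grey points of its gene.

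The plot of levels by class shows a similar order in both replicates. Of the 23 genes with at least 20 UMIs, 6 differed by more than 1.5-fold between replicates: Col14a1 was lower in replicate 1 (ratio 0.603 of replicate 1 over replicate 2), while Col4a2, Col12a1, Col6a4, Col23a1 and Col4a5 were higher, the last by 2.82-fold. The other 21 of the 44 members had little or no signal: 18 had 1 to 15 UMIs over both replicates, and 3 (Col25a1, Col26a1 and Col9a2) had 0, which allows up to 0.922 CPM in replicate 1 and, for the genes in its table, 1.505 CPM in replicate 2.

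Of the chains that join the same trimer or microfilament, the pairs of types I and V and Col6a1 with Col6a2 were counted in proportions nearer to 1, and Col4a1 with Col4a2 and Col6a1 with Col6a3 nearer to 2. Col1a1 over Col1a2 was 1.22 (1.21 to 1.24) and 1.38 (1.36 to 1.40), and Col6a1 over Col6a2 was 1.10 (1.06 to 1.14) and 1.05 (1.00 to 1.10). Col6a1 over Col6a3, the third core chain of type VI, was 1.99 (1.90 to 2.07) and 2.41 (2.27 to 2.55). Col4a1 over Col4a2 was 1.77 (1.69 to 1.85) and 2.31 (2.15 to 2.50), and Col5a1 over Col5a2 0.932 (0.892 to 0.974) and 0.825 (0.773 to 0.881). The intervals of the replicates overlapped for Col6a1 over Col6a2 and not for the other pairs. Col1a1 over Col3a1, which are chains of different molecules, was 0.798 (0.789 to 0.807) and 1.15 (1.13 to 1.17), on either side of 1.

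Several of these pairs are neighbours in the genome (GRCm38, GENCODE positions). Col4a1 (chr8:11198423-11312826, minus strand) and Col4a2 (chr8:11312805-11449287, plus strand) start 21 bases apart on opposite strands. Col3a1 and Col5a2 lie 24614 bases apart on chromosome 1 on opposite strands, Col6a2 and Col6a1 85161 bases apart on chromosome 10, and Col6a5 lies 28810 bases from Col6a4 and 27917 bases from Col6a6 on chromosome 9. Col1a1 is on chromosome 11 and Col1a2 on chromosome 6. Col4a1 and Col4a2 overlap only at their starts, at the far end of each gene from the 3′ ends that are counted.

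Stromal-gated cells were then set against T or ILC-gated cells, which hold the population the sort aimed at, to show which collagens lie above the level found in immune cells. Every named gene but Col4a5, which was too low to be tested, was higher in stromal-gated cells. Of 23 collagens tested, 22 rose and none fell, beside 25.9% of all 11883 tested genes higher, 20.5% lower and 46.4% called in either direction (edgeR quasi-likelihood test on UMIs summed per replicate and class, replicate as a block, Benjamini-Hochberg adjusted p below 0.05). DESeq2 called 21 of the 23 higher and none lower, and the same 22 were higher at an unadjusted p under 0.05. The split over all genes was 3081 higher and 2435 lower with edgeR and 2986 higher and 1536 lower with DESeq2. The collagens passed a filter on low counts mostly through their stromal level, so their count is a description of the members that passed.

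Fold changes were large in each group. Col1a1 had 15261 and 18378 CPM in stromal-gated cells, against 126 and 96.2 CPM in T or ILC-gated cells, a log2 fold change of 7.55 (SE 0.48, edgeR adjusted p = 5.11e-12). Col8a1 had the largest change at 8.98 (SE 0.49, edgeR adjusted p = 3.47e-12), with 238 and 269 CPM in stromal-gated cells, against 0.718 and 0.481 CPM in T or ILC-gated cells. Col27a1 had the smallest change of those that passed, 4.64 (SE 0.53, edgeR adjusted p = 9.09e-08). The median log2 fold change of the 23 was 7.38, against -0.02 over all genes tested. The 7 fibrillar genes tested had a median of 7.56, the 4 basement membrane genes 7.11 and the 12 other genes 7.01. Col13a1 was no longer called with DESeq2. Col19a1, a collagen of basement membrane zones, did not pass and was picked out once its values were known, at 4.00 and 1.00 CPM in stromal-gated cells against 4.67 and 0.602 CPM in T or ILC-gated cells (log2 fold change 0.39, edgeR adjusted p = 0.72).

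Detection per cell followed the levels. After each cell was thinned to 2000 UMIs, leaving 411 and 251 stromal-gated and 692 and 2142 T or ILC-gated cells, Col1a1 had a UMI in 90.02% and 98.8% of stromal-gated cells, against 19.7% and 13.2% of T or ILC-gated cells. Col4a1 was seen in 76.4% and 84.9% of stromal-gated cells, against 2.89% and 0.980% of T or ILC-gated cells, and Col8a1 in 22.4% and 37.1% against 0% and 0.0467%. Thinning left out 31 and 19 stromal-gated and 67 and 1103 T or ILC-gated cells that were too shallow. Median depth before thinning was 7093 and 6947 UMIs per stromal-gated cell and 3287 and 2350 UMIs per T or ILC-gated cell. Within the fibroblast-gated cells described below, levels spread widely from cell to cell: Col1a1 had a median of 150 and 147 UMIs per 10000, with the 10th percentile at 67.8 and 45.9 and the 90th at 306 and 357.

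Free RNA from lysed cells gives UMIs in cells that do not make a transcript, so the collagen UMIs of the immune classes were compared with a scaled copy of the stromal profile. The immune classes and unassigned cells also held 367 and 56 cells with at least 4 stromal markers whose immune marker UMIs were not fewer. The highest collagen share of any T or ILC-gated cell was 0.748% and 2.24%. How much of the immune collagen UMIs came from free RNA, doublets or the cells themselves was not tested. The summed level of Col1a1, Col1a2 and Col3a1 was 123 and 196 times higher in stromal-gated than in T or ILC-gated cells, 114 and 221 times higher than in plasma or B-gated cells and 162 and 269 times higher than in myeloid-gated cells. Scaled by these 3 genes, the remaining collagens of T or ILC-gated cells summed to 1.48 (1.34 to 1.63) and 1.06 (0.969 to 1.16) times the count that the stromal profile gives. In myeloid-gated cells they summed to 1.77 (1.47 to 2.11) and 3.25 (2.29 to 4.49) times, and in plasma or B-gated cells to 1.51 (1.40 to 1.64) and 0.754 (0.303 to 1.55) times. Of these 6 sums, the interval included 1 for T or ILC-gated and plasma or B-gated cells of replicate 2, and 4 sums lay above it. Gene by gene, the counting interval included 1 for 15 of 20 named genes in T or ILC-gated cells in each replicate, for 15 and 16 in myeloid-gated cells, and for 9 and 20 in plasma or B-gated cells, where replicate 2 had only 23 cells. Of these 20 genes, each with at least 20 stromal UMIs, Col18a1 alone had an interval wholly above the profile in T or ILC-gated cells of both replicates, at 3.20 (1.92 to 4.99) and 2.79 (2.00 to 3.81) times, from 19 and 40 UMIs. Of the members with fewer stromal UMIs, 5 (Col7a1, Col9a3, Col11a2, Col19a1 and Col20a1) had intervals wholly above it in both replicates, from 2 to 17 UMIs per replicate in T or ILC-gated cells and 1 to 13 in stromal-gated cells. These intervals do not count the error of the few stromal UMIs.

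**Figure D2:**
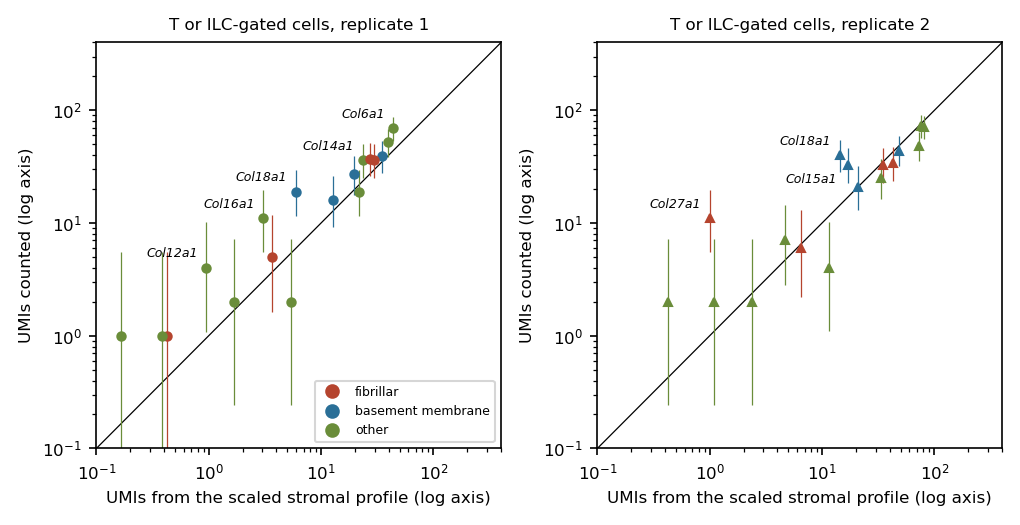
UMIs of each named collagen counted in T or ILC-gated cells against the number given by the stromal profile scaled to Col1a1, Col1a2 and Col3a1, both on log axes, with 1 panel per replicate, bars of 95% counting intervals, colours for the collagen groups and the line of equality. Most bars cross the line. Col18a1 lies above it in both panels, at 3.20 and 2.79 times. Genes with no UMI in T or ILC-gated cells are not drawn.

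The plot of counted against scaled UMIs shows, for T or ILC-gated cells of replicate 1, 5 genes with intervals wholly above the line of equality and 0 wholly below. For replicate 2 it shows 3 wholly above and 2 wholly below, with the widest intervals where counts are low. Chain ratios can be set beside it: Col1a1 over Col1a2 in T or ILC-gated cells was 1.18 (1.01 to 1.38) and 1.59 (1.42 to 1.78), beside 1.22 and 1.38 in stromal-gated cells. The interval of replicate 2 lay just above its stromal value.

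Stromal-gated cells were first divided by Grem1 (a secreted antagonist of bone morphogenetic proteins), Ogn (a small leucine-rich proteoglycan) and C3 (complement component), genes that fibroblasts of the gut wall express to differing degrees. Cells with UMIs of at least 2 of the 3 genes were called GOC+ (275 and 222 cells), and cells with none GOC- (78 and 9 cells). The GOC- cells went against the stromal label. The stromal marker list took 5.73% and 4.88% of UMIs in GOC+ cells, against 0.599% and 0.367% in GOC- cells, and plasma cell genes took 1.34% and 0.628% of UMIs in GOC+ cells, against 30.7% and 0.0156% in GOC- cells, on opposite sides of GOC+ cells in the 2 replicates. Summed endothelial markers were 56.6 and 73.5 CPM in GOC+ cells, against 2980 and 134 CPM in GOC- cells, and summed epithelial markers 35.9 and 3.502 CPM against 656 and 156 CPM. Median depth was 8859 and 7210 UMIs in GOC+ cells, against 2741 and 3664 in GOC- cells. GOC- cells are therefore described by their rule and not as stromal cells, and the part of these differences in what follows was not tested.

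Collagens took 6.91% and 6.48% of UMIs in GOC+ cells, against 0.472% and 0.218% in GOC- cells. Of 20 collagens tested, 14 were higher in GOC+ cells and none lower, beside 6.18% of 6151 genes higher and 3.84% lower (edgeR, replicate as a block). DESeq2 also called 14 higher and none lower, and 18 were higher and none lower at an unadjusted p under 0.05. All 6 fibrillar genes tested rose, as did 2 of 4 basement membrane genes (Col4a2 and Col15a1) and 6 of 10 other genes. The collagens passed a filter on low counts mostly through cells other than GOC-, so these counts describe the members that passed. The GOC- sums held 272774 and 44926 UMIs, against 2509647 and 1713524 in GOC+ cells. Col1a1 had 18153 and 20639 CPM in GOC+ cells, against 777 and 623 CPM in GOC- cells (log2 fold change 4.86, SE 0.58, edgeR adjusted p = 0.00363). Col8a1 had 296 and 312 CPM in GOC+ cells and no UMI in GOC- cells, so it was at least 26.9-fold and 4.67-fold higher per replicate, against a floor of 3 counts. Col4a1 missed the threshold at 1665 and 1164 CPM in GOC+ cells, against 458 and 44.5 CPM in GOC- cells (log2 fold change 2.42, edgeR adjusted p = 0.0513). The median log2 fold change of the 20 was 3.32, or 3.18 with Col6a4 and Col8a1 at their bounds, against 0.05 over all genes. The calls depended on how cells and replicates were treated: 2 of the 14 collagens remained without the replicate block and 2 with a gate of 6 stromal markers. Col15a1 was lost without cells that hold a Ptprc UMI, and Col3a1 was lost with GOC+ set at 1 UMI. Col4a1 was gained with RLE normalization, thinning, doublets kept, GOC+ at 1 UMI or no count filter. It was also gained with only GOC+ and GOC- fitted, or without endothelial, mural or glial cells. Col18a1 was gained with thinning, GOC+ at 1 UMI, no count filter or only GOC+ and GOC- fitted, and Col6a5 with no count filter.

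Because GOC- cells were so few and so mixed, a second division was made among fibroblast-gated cells alone, chosen after these values had been seen. It kept the 304 and 246 stromal-gated cells with at least 1% of their UMIs in the stromal list and no endothelial, mural or glial mark, and ranked them within each replicate by Grem1, Ogn and C3 UMIs per 10000. The highest tercile (GOC-high, 101 and 82 cells) was set against the lowest (GOC-low, 102 and 82 cells), and the middle tercile was kept in the fit to give residual degrees of freedom. Grem1, Ogn and C3 themselves are not results. The cuts fall on a continuous range, and 27 and 13 cells lay within 10% of the lower cut and 32 and 25 within 10% of the upper.

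The make-up of the collagen pool differed along this range. GOC-high cells were richer in type I and type III collagen, Col14a1 and Col8a1, and GOC-low cells in Col15a1, Col18a1, Col12a1 and Col6a5. Collagens as a whole took 8.11% and 8.28% of UMIs in GOC-high cells, against 5.77% and 3.71% in GOC-low cells. Of 21 collagens tested, 5 rose, beside 1.87% of 7983 genes higher, and 4 fell, beside 1.27% of genes lower and 3.13% in either direction (edgeR, replicate as a block, adjusted p below 0.05). The other 12 did not pass. The median log2 fold change of the 21 was 0.19, against -0.03 over all genes. Its direction rests on replicate 2. Taken as CPM ratios with a small prior count and no normalization factors, it was -0.20 without replicate 2 and 0.25 without replicate 1. The same ratios had medians of -0.08 and -0.24 over all genes.

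**Figure D3:**
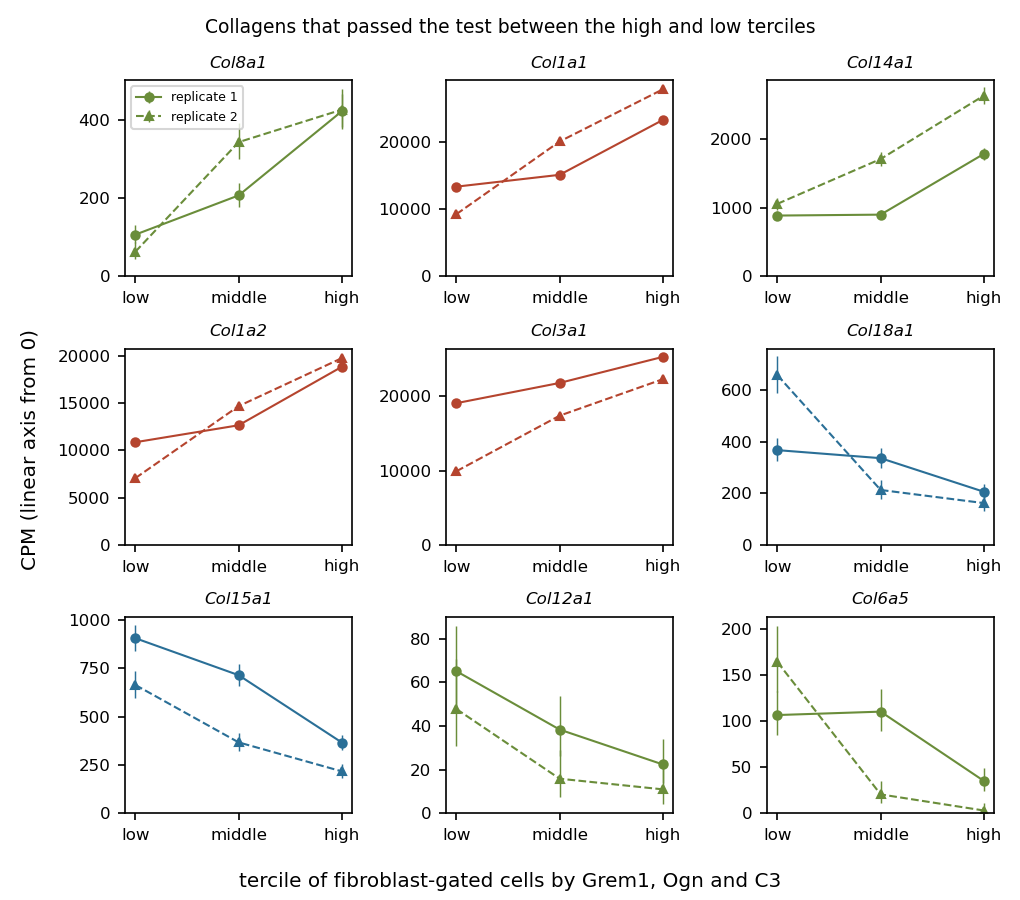
Levels of the 9 collagens that passed the test in the low, middle and high terciles of fibroblast-gated cells, in CPM on linear axes from 0, with 1 line per replicate and bars of 95% counting intervals. Col8a1 stands at 422 and 426 CPM in GOC-high cells and at 107 and 63.1 CPM in GOC-low cells, while Col15a1 runs the other way, at 366 and 217 CPM and at 905 and 664 CPM.

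Among fibrillar collagens, the type I chains and type III rose. Col1a1 had 23303 and 27863 CPM in GOC-high cells, against 13362 and 9263 CPM in GOC-low cells (log2 fold change 1.29, SE 0.20, edgeR adjusted p = 0.00568). Col1a2 had 18860 and 19776 CPM in GOC-high cells, against 10869 and 7068 CPM in GOC-low cells (1.24, SE 0.18, edgeR adjusted p = 0.00449). For both chains, each GOC-high replicate value lay above each GOC-low value. These values are sums over cells and do not describe single cells. Col1a1 over Col1a2 was 1.24 (1.21 to 1.26) and 1.41 (1.38 to 1.44) in GOC-high cells, against 1.23 (1.19 to 1.27) and 1.31 (1.26 to 1.37) in GOC-low cells, with intervals that overlapped in replicate 1 and not in replicate 2. Col3a1 had 25275 and 22278 CPM in GOC-high cells, against 19048 and 9898 CPM in GOC-low cells (0.90, SE 0.17, edgeR adjusted p = 0.0173). Col1a1 over Col3a1 was 0.922 (0.905 to 0.939) and 1.25 (1.22 to 1.28) in GOC-high cells, against 0.702 (0.684 to 0.720) and 0.936 (0.900 to 0.973) in GOC-low cells, so the balance lay further towards type I in GOC-high cells of each replicate. The type V chains did not pass: Col5a2 had a log2 fold change of 0.52 (edgeR adjusted p = 0.106), Col5a3 one of 0.40 and Col5a1 one of 0.19. Col27a1 had 11.7 and 1.57 CPM in GOC-high cells, against 31.3 and 68.8 CPM in GOC-low cells (-2.52, edgeR adjusted p = 0.0607).

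Among basement membrane collagens, the border types fell and the network chains did not pass. Col15a1 had 366 and 217 CPM in GOC-high cells, against 905 and 664 CPM in GOC-low cells (log2 fold change -1.33, SE 0.17, edgeR adjusted p = 0.00156). Col18a1 had 206 and 162 CPM in GOC-high cells, against 367 and 658 CPM in GOC-low cells (-1.33, SE 0.28, edgeR adjusted p = 0.0283). Every GOC-low value of both genes lay above every GOC-high value. Col4a1 had 1489 and 1137 CPM in GOC-high cells, against 1943 and 1186 CPM in GOC-low cells (-0.10, SE 0.15, edgeR adjusted p = 0.848), and Col4a2 860 and 451 CPM against 1068 and 620 CPM (-0.26, SE 0.15, edgeR adjusted p = 0.487). Basement membrane genes made up 3.63% and 2.39% of collagen UMIs in GOC-high cells, against 7.43% and 8.44% in GOC-low cells.

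Among the other collagens, Col8a1 had the largest rise of all members tested. It had 422 and 426 CPM in GOC-high cells, against 107 and 63.1 CPM in GOC-low cells (log2 fold change 2.39, SE 0.29, edgeR adjusted p = 0.00140). Col14a1, whose product coats fibrils and limits their growth, had 1787 and 2636 CPM in GOC-high cells, against 887 and 1058 CPM in GOC-low cells (1.27, SE 0.18, edgeR adjusted p = 0.00339). Its relative on the fibril surface, Col12a1, moved the opposite way, with 22.4 and 11.01 CPM in GOC-high cells, against 65.1 and 47.8 CPM in GOC-low cells (-1.63, SE 0.32, edgeR adjusted p = 0.0203). Col6a5 fell as well, with 35.2 and 3.15 CPM in GOC-high cells, against 107 and 164 CPM in GOC-low cells (-2.65, SE 0.63, edgeR adjusted p = 0.0495). The core type VI chains did not pass, with log2 fold changes of 0.23 for Col6a1, 0.02 for Col6a2 and 0.38 for Col6a3. Col16a1 had a change of 0.31, Col23a1 one of -0.33 and Col6a4 one of -1.53, and none passed.

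**Figure D4:**
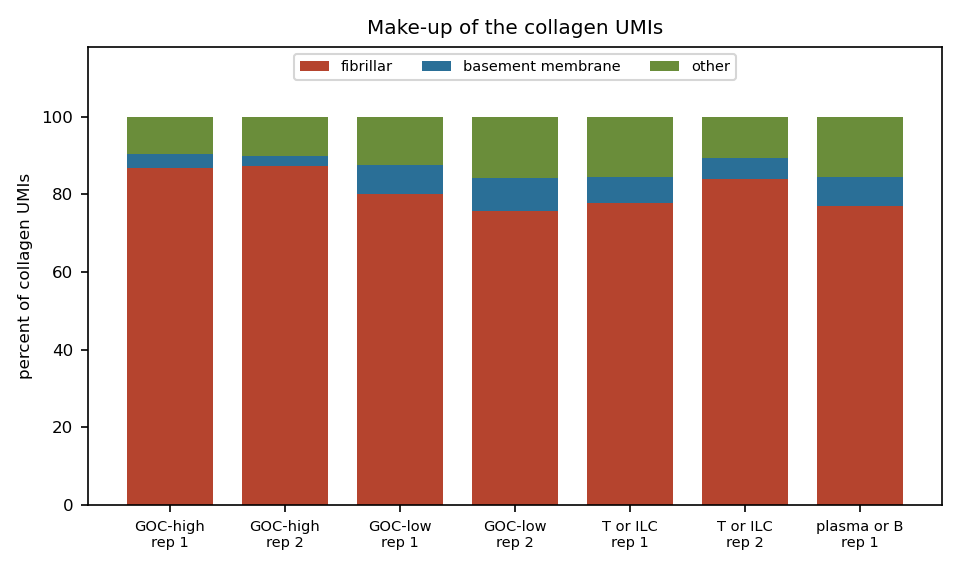
Share of collagen UMIs from fibrillar, basement membrane and other genes, in percent, as stacked bars for each replicate of GOC-high, GOC-low and T or ILC-gated cells and for replicate 1 of plasma or B-gated cells. Fibrillar genes hold 86.9% and 87.4% in GOC-high cells and 80.2% and 75.8% in GOC-low cells.

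The plot of make-up shows that the fibrillar share was higher in GOC-high cells, at 86.9% (86.7% to 87.1%) and 87.4% (87.2% to 87.7%), against 80.2% (79.8% to 80.6%) and 75.8% (75.2% to 76.4%) in GOC-low cells. The other genes made up 9.46% and 10.2% in GOC-high cells, against 12.4% and 15.8% in GOC-low cells. The change was larger in replicate 2 for all 9 members that passed. Taken replicate by replicate, with a small prior count, Col1a1 changed by 0.80 and 1.59 on the log2 scale, Col18a1 changed by -0.83 and -2.02 and Col6a5 by -1.59 and -5.40.

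**Figure D5:**
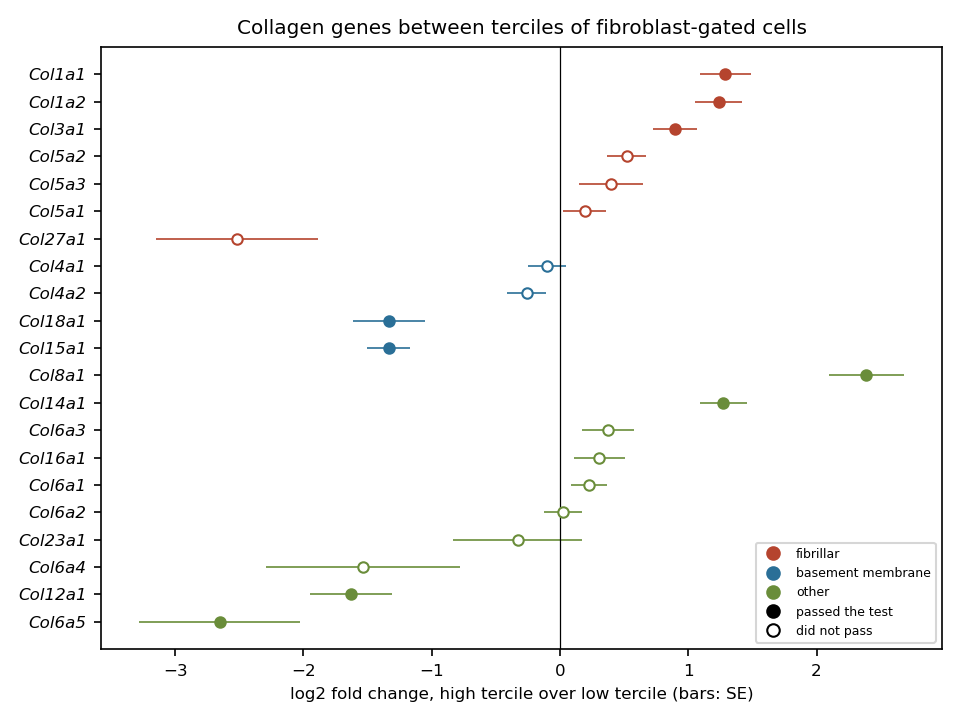
Log2 fold change of each collagen tested, GOC-high over GOC-low tercile of fibroblast-gated cells, with bars of 1 SE and filled points for genes that passed the edgeR test. Filled points run from -2.65 (Col6a5) to 2.39 (Col8a1), with 5 genes above 0 and 4 below it, and the type IV and core type VI chains stand near 0.

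Other cells' markers moved in part with this division. Summed immune markers were 107 and 950 CPM in GOC-high cells, against 198 and 1769 CPM in GOC-low cells, and summed T or ILC markers 251 and 930 CPM against 386 and 1658 CPM. Plasma cell genes took 0.863% and 0.0750% of UMIs in GOC-high cells, against 2.04% and 0.624% in GOC-low cells, and median depth was 8905 and 7176 UMIs against 7647 and 5966. With only cells without a Ptprc UMI and under 1% plasma cell UMIs, all 9 collagens remained called. The stromal list itself took 6.00% and 5.67% of UMIs in GOC-high cells, against 5.27% and 3.55% in GOC-low cells. Of its 16 genes, 2 were higher and none lower with edgeR, beside 1.87% of all 7983 genes higher and 1.27% lower. DESeq2 called 1 of the 16 higher and none lower, and 9 were higher and 3 lower at an unadjusted p under 0.05. The summed subepithelial fibroblast list stood at 597 and 530 CPM in GOC-high cells, against 1125 and 1287 CPM in GOC-low cells. Of its 5 genes tested, F3 was higher and Bmp5 and Tnc were lower. DESeq2 also called 1 higher and 2 lower, and 2 were higher and 3 lower at an unadjusted p under 0.05. The 12 endothelial markers summed to 53.3 and 70.8 CPM in GOC-high cells, against 41.7 and 74.6 CPM in GOC-low cells, and of the 2 tested neither passed. Cdh5, Kdr, Cldn5, Prox1 and Mmrn1 were at 0 in all 4, Plvap had 36.3 and 45.6 CPM in GOC-high cells, against 24.8 and 7.65 CPM in GOC-low cells, and Pecam1 had 12.8 and 25.2 CPM against 15.6 and 59.3 CPM. The 10 mural markers summed to 1375 and 1313 CPM in GOC-high cells, against 1163 and 901 CPM in GOC-low cells. Of the 3 tested none passed, and 1 was higher and 2 lower at an unadjusted p under 0.05. Acta2 had 7.47 and 4.72 CPM in GOC-high cells, against 23.4 and 40.2 CPM in GOC-low cells. Des had 2.13 and 1.57 CPM against 19.5 and 17.2 CPM. Rgs5 ran the other way, with 1343 and 1291 CPM against 1101 and 820 CPM. The part of the stromal, endothelial and mural list values in the collagen changes was not tested. Cells with at least 3 subepithelial fibroblast markers made up 18 and 12 of the GOC-high cells and 20 and 25 of the GOC-low cells, and with them left out all 9 also remained called. The fit has 2 residual degrees of freedom and leans on the pairing: without the replicate block, 0 of the 9 collagens passed, and with only GOC-high and GOC-low in the fit, Col12a1, Col18a1, Col3a1 and Col6a5 were lost. DESeq2 lost Col12a1 and Col6a5, another normalization (RLE) lost Col6a5, and thinning each cell to 2000 UMIs left 18 collagens tested, without Col12a1, and the other 8 called.

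The promoters of the called members whose window is free of annotated exons are printed here, since these genes changed in opposite directions. Each is the 150 bases before the RefSeq transcript start (RefSeq, GRCm38.p6), 5′ to 3′ on the gene's strand, with matches to 3 motifs on either strand in capitals. The motifs are TATAAA (letters of the TATA box), CCAAT (letters of the CCAAT box) and GGGCGG (letters of the GC box), and GGGCGG on the opposite strand reads CCGCCC. Col3a1 (chr1:45311388-45311537, plus strand) and Col8a1 (chr16:57754738-57754887, minus strand) rose, and Col15a1 (chr4:47207862-47208011, plus strand) and Col6a5 (chr9:105960644-105960793, minus strand) fell.
Col3a1: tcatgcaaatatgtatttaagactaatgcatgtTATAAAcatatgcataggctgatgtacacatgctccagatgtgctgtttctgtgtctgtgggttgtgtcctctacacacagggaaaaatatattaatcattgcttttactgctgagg
Col8a1: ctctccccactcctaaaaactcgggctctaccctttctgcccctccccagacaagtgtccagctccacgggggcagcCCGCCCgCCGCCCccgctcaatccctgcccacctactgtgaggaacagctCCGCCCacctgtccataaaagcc
Col15a1: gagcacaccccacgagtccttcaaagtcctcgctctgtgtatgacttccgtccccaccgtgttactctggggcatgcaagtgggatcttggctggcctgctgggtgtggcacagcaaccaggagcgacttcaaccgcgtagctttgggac
Col6a5: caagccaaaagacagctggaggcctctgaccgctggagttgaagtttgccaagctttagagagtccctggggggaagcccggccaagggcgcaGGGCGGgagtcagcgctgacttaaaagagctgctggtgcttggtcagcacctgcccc

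Col3a1 held 1 TATAAA, Col8a1 held 3 matches to GGGCGG and Col6a5 held 1, while none of these letters were found in the Col15a1 window. Over all 32851 windows of the same length, TATAAA was in 7.57%, CCAAT in 24.5% and GGGCGG in 28.6%. Of the 23 genes with at least 20 UMIs, 19 had a window, and of their 21 windows 1 held TATAAA, 5 CCAAT and 11 GGGCGG. These matches describe the sequence and are not evidence of binding. The place of a match in its window was not considered, so the TATAAA of Col3a1 is not shown to be a TATA box.

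Genes that make, partner, remodel or sense collagen were followed through lists chosen with earlier results of these data known. The genes named from each list are those called with the largest change, at most 4. Between stromal-gated and T or ILC-gated cells, 25.9% of all 11883 tested genes were higher and 20.5% lower, to be read beside each list. Of the 26 genes of collagen synthesis and processing tested between stromal-gated and T or ILC-gated cells, 23 rose and 1 fell. The largest rises were Pcolce2, an enhancer of procollagen trimming (log2 fold change 8.16), Adamts2, the procollagen N-proteinase (7.85), Lox, the cross-linking oxidase (7.75), and Sparc, a collagen-binding matricellular protein (7.54). Pcolce2 had 2 and 3 UMIs in T or ILC-gated cells, which limits the size given for its change. All 10 basement membrane partners tested rose, among them Lama1, a laminin chain with no UMI in T or ILC-gated cells, the linker Nid1 (log2 fold change 7.83) and the laminin chains Lamb1 (7.76) and Lama4 (7.61). All 23 fibril-associated genes tested rose, led by the small proteoglycan Aspn (8.48). Many genes of these lists passed the filter on low counts through their stromal level, so the counts describe the genes that passed. Of 13 breakdown genes, 11 rose and 1 fell. The rises were led by the protease inhibitor Timp1 (8.44), which had only 0 and 1 UMIs in T or ILC-gated cells. The gene that fell was the collagenase Mmp13, which was not called by DESeq2. It had no UMI in stromal-gated cells and 0 and 25 UMIs in T or ILC-gated cells. Most Mmp13 UMIs lay in myeloid-gated cells, with 15 and 192 UMIs (16.1 and 694 CPM). Mmp13 and the receptors that fell were picked out because they were so few.

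Collagen receptors were mixed, in a comparison that called 25.9% of all tested genes higher and 20.5% lower. Of 9 tested in stromal-gated over T or ILC-gated cells, 4 rose: the collagen-binding kinases Ddr2 (log2 fold change 7.85) and Ddr1 (4.73), the integrin chain Itga11 (5.68) and the shared integrin chain Itgb1 (2.96). The 3 that fell, of which DESeq2 called 1, were as follows. Lair1, an inhibitory collagen receptor of leukocytes, had 0 and 3.51 CPM in stromal-gated cells, against 8.62 and 8.66 CPM in T or ILC-gated cells. Itga2, an integrin chain that binds collagen, had 5.84 and 8.53 CPM in stromal-gated cells, against 16.5 and 21.3 CPM in T or ILC-gated cells. Cd44, mainly a hyaluronan receptor, had 124 and 127 CPM in stromal-gated cells, against 262 and 288 CPM in T or ILC-gated cells.

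Between GOC-high and GOC-low cells, fewer partner genes passed. Over all 7983 genes tested, 1.87% were higher and 1.27% lower with edgeR. DESeq2 called 91 genes higher and 48 lower, and 554 and 581 were so at an unadjusted p under 0.05. Of 23 synthesis genes tested, 4 rose and none fell with edgeR (3 and 0 with DESeq2, 7 and 0 at an unadjusted p under 0.05): Pcolce2 (log2 fold change 1.75), Pcolce (1.03), Sparc (0.95) and Lox (0.90). Sparc had 27540 and 21070 CPM in GOC-high cells, against 19100 and 9451 CPM in GOC-low cells. Of 10 basement membrane partners, none rose and 2 fell with edgeR and with DESeq2 (1 and 5 at an unadjusted p under 0.05), Nid2 (-3.63) and Lama1 (-3.39). Nid2 had 4 and 0 UMIs in GOC-high cells against 21 and 23 in GOC-low cells. The laminin chain Lama1 had 6 and 1 UMIs in GOC-high cells against 32 and 32 in GOC-low cells. Such low counts limit the size given for both changes. Of 22 fibril-associated genes, 2 rose and 6 fell (2 and 3 with DESeq2, 4 and 8 at an unadjusted p under 0.05), with Postn (1.805) and Dpt (1.10) higher and the matricellular genes Tnc (-2.94) and Thbs2 (-1.54) lower. Tnc is also on the subepithelial fibroblast list. Of 11 breakdown genes, 2 rose and 2 fell (1 and 2 with DESeq2, 6 and 2 at an unadjusted p under 0.05). The stromelysin gene Mmp10 had 4.27 and 0 CPM in GOC-high cells, against 318 and 2211 CPM in GOC-low cells (-8.31), and the inhibitor Timp3 177 and 55.0 CPM against 798 and 304 CPM (-2.15). The surface protease Fap (2.44) and the inhibitor Timp2 (0.69) were higher. None of 6 receptors passed in either direction with edgeR or DESeq2, and 1 was lower at an unadjusted p under 0.05. The same lists in GOC+ over GOC- cells gave 13 of 23 synthesis genes, 6 of 8 basement membrane partners, 14 of 21 fibril-associated genes, 8 of 11 breakdown genes and 1 of 5 receptors (Ddr2) higher, with none lower by edgeR, by DESeq2 or at an unadjusted p under 0.05. Over all 6151 genes tested in that comparison, 6.18% were higher and 3.84% lower with edgeR. Many of the listed genes passed the filter on low counts through cells other than GOC-, so their counts describe the genes that passed.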

How the data were processed

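Single-cell RNA was measured in 2 replicates of 1 group. The deposited tables hold UMI counts per cell and gene, not normalised, made by the authors with the BD WTA Multiplex Rhapsody pipeline 1.8 on GRCm38 with GENCODE vM19 genes, per the file headers; sample tag calls come from the same pipeline. HISAT2 2.0.5 and Bowtie2 appear, without a role, in the submitters' processing notes. Tagged cells held 11939862 and 12141164 UMIs.

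Cells under 300 detected genes or over 25% mitochondrial UMIs were dropped. Scrublet (scanpy 1.11.5) removed 39 (2.01%) and 6 (0.143%) cells, so doublets must be taken as present in replicate 2. Counts were summed per replicate and class and tested with edgeR 4.0.16 (TMM, filterByExpr, two-sided), with replicate as a block, since the classes of a replicate come from the same tagged sample. Collagens with at least 20 UMIs, or called, are named. SE is the absolute log2 fold change over the root of F. Members, lists and gates were chosen with earlier results of these data known; the terciles and their alternatives were added after seeing the data. In simulated data the tercile fit recovered 67% of 2-fold and 99% of 4-fold changes, stromal over T or ILC 27% and 97%, and GOC+ over GOC- 4% and 60%. Changes were simulated only in genes above a set level, at the fitted spread and with equal means in both replicates. The rates therefore do not cover collagens of low level such as Col27a1, Col23a1 and Col6a4. Alternatives included DESeq2 1.42.0, other normalization, filters and gates, and leaving out each replicate. The driver of Cre in these mice is not reported here.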

Additional observations from a re-analysis of the deposited data

How the results depend on the processing

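No collagen called in a comparison reversed its direction under an alternative. GOC+ over GOC-: without the replicate block 2 collagens were higher (36 genes higher, 5 lower); with a gate of 6 stromal markers 2 (20 higher, 50 lower); with no count filter 736 genes were higher and 514 lower; with GOC+ at 1 UMI 155 were lower; the thinned median log2 fold change was 2.17, and leaving out a replicate gave 3.00 to 3.95. GOC-high over GOC-low: without the replicate block 0 collagens were higher and 0 lower (6 and 2 genes); with only GOC-high and GOC-low fitted 1 collagen was lower (76 and 46 genes); with DESeq2 2 were lower (91 and 48 genes); with no filter 337 genes were higher and 253 lower, and with an upper and a lower class split at the median in place of terciles 247 and 172. Leaving out a replicate gave medians of -0.20 (without replicate 2) to 0.25, and Col5a1, Col5a3, Col6a1, Col6a2 and Col6a3, none of them called, turned below 0 without replicate 2. In every comparison, values without a replicate are CPM ratios with no normalization factors, unlike those of the fits. Stromal over T or ILC: DESeq2 called 1536 genes lower, the median was 5.85 with no filter and 6.46 to 7.56 without a replicate, and another normalization (RLE) moved the median of all genes to 0.19. The collagen share of stromal UMIs was 6.18% with 6 markers, 6.44% without Ptprc UMIs, 5.83% with doublets kept and 4.92% as a median over cells. The causes were not tested. Counts limit Col27a1, Col23a1, Col6a4, Col13a1 and Col4a5, and 2 replicates limit every test.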

Other observations

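Some collagens had values outside the fibroblast pattern, named here after those values were seen and given without a test. Col23a1, a transmembrane collagen, had 195 CPM (109 to 321) in the 11 cells of replicate 1 with at least 3 endothelial markers, from 15 UMIs in 5 cells, against 18.7 CPM (14.3 to 24.1) over all stromal-gated cells of that replicate; the single such cell of replicate 2 held 4 UMIs.

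Col27a1 had 12.9 CPM (6.64 to 22.5) and 18.1 CPM (5.87 to 42.2) in myeloid-gated cells, near its stromal level of 18.7 and 23.6 CPM, against 0.359 and 1.32 CPM in T or ILC-gated cells. The myeloid UMIs were few, 12 in 4 cells and 5 in 5 cells.

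Col9a3, a chain of the cartilage type IX collagen, had 17 UMIs in 17 T or ILC-gated cells of replicate 2 (2.05 CPM, 1.19 to 3.27), where the scaled stromal profile gives 0.0213, and 3 UMIs in 3 such cells of replicate 1. Stromal-gated cells held 3 and 1 UMIs of it.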
